A study of Rattus norvegicus with 22 samples.

Results

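The 10 genes described here encode proteins that release fatty acids from blood lipoproteins, carry them into cells and bind or activate them there. They were chosen by symbol, as Lpl, Gpihbp1, Angptl4, Cd36, Slc27a1, Slc27a4, Fabp3, Fabp4, Fabp5 and Acsl1, and all 10 were found among the 32623 genes of the deposited expression table. The table covers 22 mRNA sequencing libraries of obese male Sprague Dawley rats, made obese with a high-fat feed for 8 weeks from an age of 3 weeks and then treated for 4 weeks. Epididymal adipose tissue (F, here fat) and gastrocnemius muscle (M) were taken from rats kept in normoxia at 21% oxygen without exercise (normoxia quiet, C), in normoxia with treadmill running at 25 m/min (normoxia exercise, CE), at reduced oxygen without exercise (hypoxic quiet, H), or at reduced oxygen with running at 20 m/min (hypoxia exercise, HE). Fat was represented by 3 FC, 3 FCE, 2 FH and 2 FHE libraries, and muscle by 12 libraries, 3 to a group (MC, MCE, MH, MHE). The paper states that the animals were kept from their diet for 12 h before sampling. All groups share this fast and the high-fat feeding, and no lean group was analysed here. Since the running speeds differ, any comparison of HE with CE, and the interaction of exercise with hypoxia, compares speed as well as oxygen.

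Lipoprotein lipase cuts triglyceride carried by lipoproteins in the capillary, where the anchor GPIHBP1 holds it on the endothelial surface and ANGPTL4 inactivates it. The fatty acids that are released enter adipocytes and muscle fibres with the help of CD36 and of the fatty acid transport proteins of the SLC27 family, are bound in the cytosol by fatty acid binding proteins, and are coupled to coenzyme A by acyl-CoA synthetases before they are stored or oxidised. White fat takes up fatty acids mainly after feeding, and muscle mainly during fasting and exercise, and the balance is known to be set in part by the amount of lipase and of its inhibitor in each tissue.

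Levels are given as CPM, the counts of a gene per 1000000 nuclear counts, that is counts of all genes outside the mitochondrial genome, because mitochondrial genes took 10.1% to 22.6% of the counts in 8 fat libraries, 44.7% and 40.7% in FHE2 and FHE3, and 89.4% to 97.4% in muscle. Total counts were 27149905 to 44334313 per library, which left 20060028 to 36162561 nuclear counts in fat and only 841153 to 4334813 in muscle, so that levels of the rarer genes were less precise in muscle. Summed skeletal muscle fibre markers were at 8.63 to 76.6 CPM in 8 fat libraries, but at 1760 CPM in FCE2 and 32483 CPM in FHE3, while muscle libraries held 52678 to 121904 CPM. Genes were compared with the quasi-likelihood test of edgeR, and adjusted p is by Benjamini and Hochberg over every gene tested. The methods name as many rats as there are libraries, while the labels tie no library to a rat, so p measures the spread between libraries alone, and in bulk tissue fewer cells of a type and less RNA per cell cannot be told apart.

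Between tissues, 9 of the 10 genes were higher in fat and only Fabp3, the heart and muscle type binding protein, was higher in muscle, and all 10 passed the test over the 22 libraries with treatment as a covariate. Of 13797 genes tested, 32.5% were higher in fat and 26.2% were higher in muscle at an adjusted p under 0.05. The plot of levels by library shows that fat and muscle did not overlap for any of the 9 genes that were higher in fat.

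**Figure D1:**
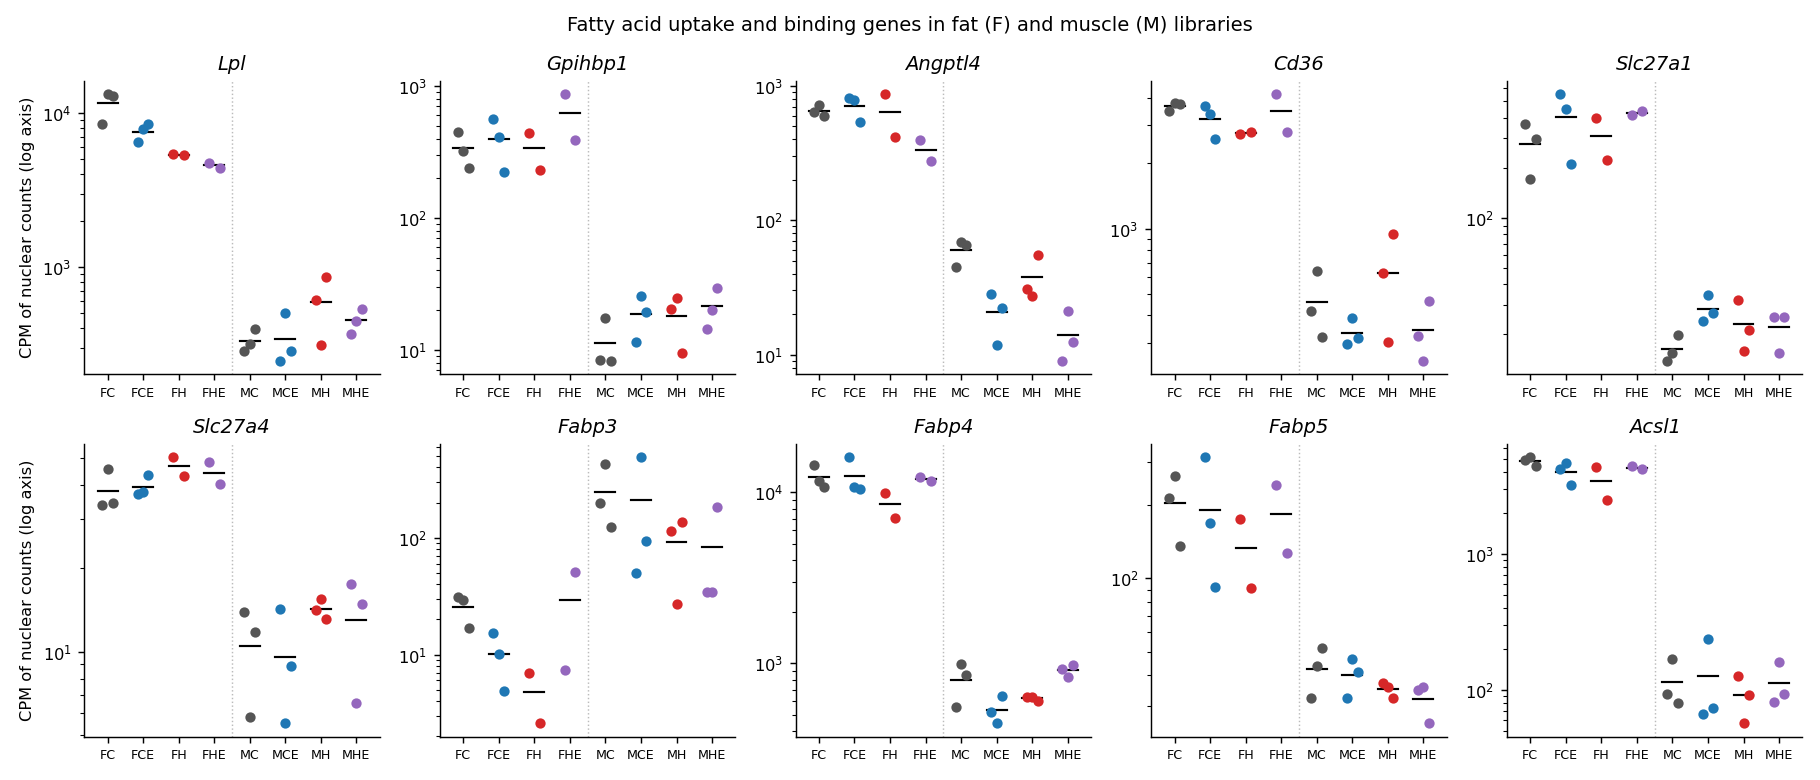
Levels of the 10 genes in every library, as CPM of nuclear counts on a log axis, by tissue (F, fat; M, muscle) and treatment (C, normoxia quiet; CE, normoxia exercise; H, hypoxic quiet; HE, hypoxia exercise). Points are libraries and bars are group means. For 9 genes every fat library lies above every muscle library, and for Fabp3 the muscle libraries are mostly higher.

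Acsl1, the main long-chain acyl-CoA synthetase of fat, had the largest difference between tissues among the 10 genes, with a log2 fold change of muscle against fat of -5.23 (SE 0.28, adjusted p = 2.66e-12 from edgeR). Gpihbp1 followed at -4.64 (SE 0.29, adjusted p = 1.49e-11), Angptl4 at -4.33 (SE 0.26, adjusted p = 1.2e-11) and Lpl at -4.13 (SE 0.28, adjusted p = 7.07e-11), so the lipase, its anchor and its inhibitor were lower in muscle by similar amounts. Fabp4, the adipocyte binding protein, was at -4.04 (SE 0.20, adjusted p = 1.13e-12) and Slc27a1, the fatty acid transport protein known from fat and muscle, at -4.02 (SE 0.22, adjusted p = 3.08e-12). Smaller differences were found for Cd36 at -2.99 (SE 0.22, adjusted p = 2.99e-10), for Fabp5, the epidermal type binding protein, at -2.28 (SE 0.22, adjusted p = 1.4e-08) and for Slc27a4, a more widely expressed transport protein, at -1.85 (SE 0.17, adjusted p = 7.29e-09). Fabp3 was at 3.35 (SE 0.58, adjusted p = 3.76e-05).

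Muscle libraries also held adipocyte transcripts. The 15 adipocyte markers summed to 621 to 1334 CPM in muscle, and their mean there was 2.22% of that in fat. Of these, Adipoq was at 22.7 to 304 CPM in muscle, Plin1 at 0 to 76.6 CPM and Lep at 0 to 25.8 CPM. Most of the sum thus came from the other markers listed, whose cells of origin in muscle were not tested. On the same scale the mean muscle level was 2.64% of the fat level for Acsl1, 4.22% for Gpihbp1, 5.45% for Angptl4, 5.56% for Lpl, 6.27% for Fabp4 and 6.41% for Slc27a1. It was 13.3% for Cd36, 20.5% for Fabp5 and 28.6% for Slc27a4, and for Fabp3 the muscle mean was 9.06 times the fat mean. The share of the muscle levels that comes from adipocytes was not tested. Endothelial markers, of which 10 of 12 were found, had a mean in muscle of 48.6% of that in fat, well above the 4.22% of Gpihbp1, whose product sits on capillary endothelium.

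Compared per length, as the deposited TPM (transcripts scaled by gene length) rescaled to nuclear genes, Fabp4 was the most abundant of the 10 in both tissues. Its mean in fat was 29865 ± 5389 TPM (SD, n = 10), the highest level of any nuclear gene, and in muscle it was 1518 ± 390.4 TPM (SD, n = 12), rank 104. In fat Lpl followed with 3303 TPM, then Cd36 with 2217 TPM, Acsl1 with 1784 TPM, Gpihbp1 with 759 TPM, Angptl4 with 498 TPM, Fabp5 with 386 TPM, Slc27a1 with 169 TPM, Fabp3 with 35.2 TPM and Slc27a4 with 20.8 TPM. In muscle the order after Fabp4 was Fabp3 with 249 TPM, Cd36 with 218 TPM, Lpl with 142 TPM, Fabp5 with 62.4 TPM, Acsl1 with 36.7 TPM, Gpihbp1 with 25.4 TPM, Angptl4 with 20.995 TPM, Slc27a1 with 8.56 TPM and Slc27a4 with 4.63 TPM. Only Fabp4 and the gene after it had ranges that did not overlap, in either tissue, and all other neighbours in these orders overlapped over libraries.

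**Figure D2:**
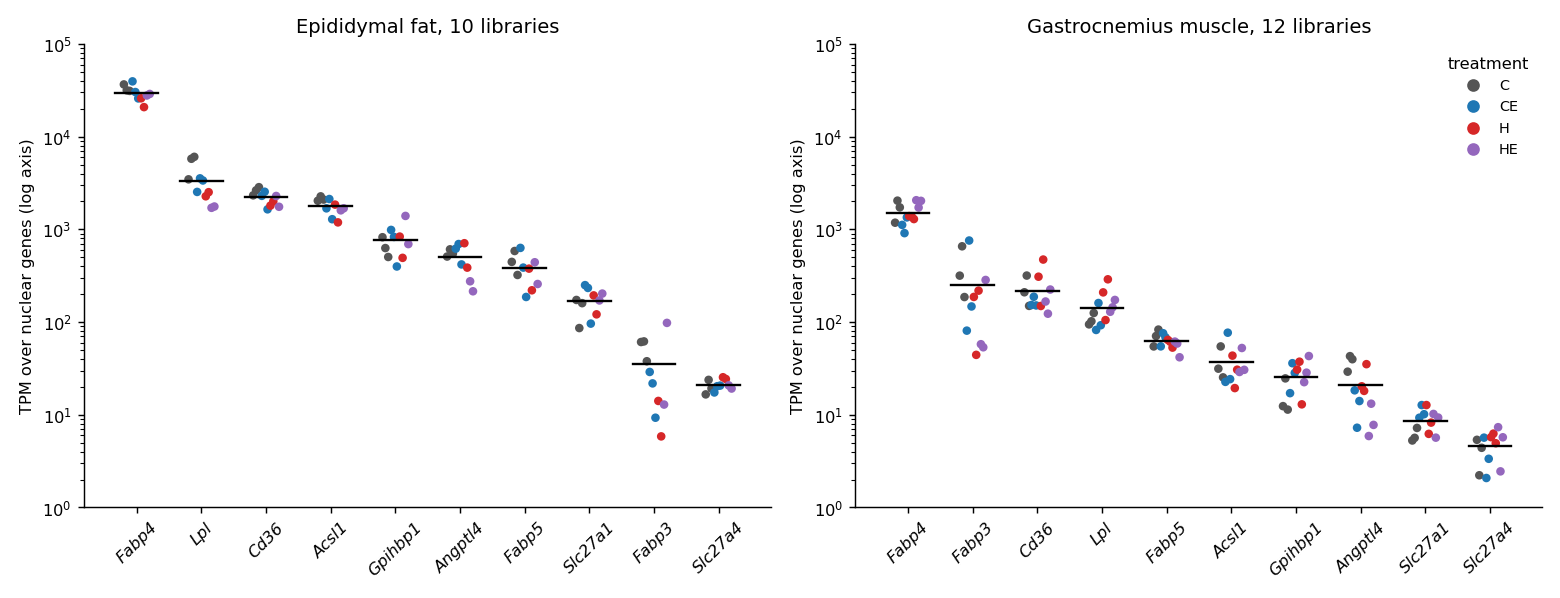
The 10 genes in order of their mean level per length, as TPM over nuclear genes on a log axis, in the 10 fat libraries and the 12 muscle libraries. Points are libraries coloured by treatment and bars are means over the tissue. Fabp4 stands clear of the next gene in both tissues, and Fabp3 moves from the ninth place in fat to the second in muscle.

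The promoters of Angptl4 and Cd36 are shown because both hold the letters ACGTG, the core to which hypoxia-inducible factors are known to bind, and the study lowered the oxygen. RefSeq promoters of the GRCr8 assembly, from 250 bases before to 50 bases after the gene start, were matched for 6 of the 10 genes, namely Angptl4, Cd36, Fabp3, Slc27a1, Slc27a4 and Acsl1. ACGTG, searched on both strands, was in 2 of these 6 and in 19.25% of 33469 rat promoters of the same length. Capitals mark it as CACGT, on the opposite strand, at 230 bases before the start of Angptl4 (chr7:15258632-15258931, minus strand) and 226 bases before that of Cd36 (chr4:18246332-18246631, plus strand). Capitals also mark TATAAA or its complement TTTATA, which 14.22% of the promoters held, and which overlap each other in Angptl4.
Angptl4: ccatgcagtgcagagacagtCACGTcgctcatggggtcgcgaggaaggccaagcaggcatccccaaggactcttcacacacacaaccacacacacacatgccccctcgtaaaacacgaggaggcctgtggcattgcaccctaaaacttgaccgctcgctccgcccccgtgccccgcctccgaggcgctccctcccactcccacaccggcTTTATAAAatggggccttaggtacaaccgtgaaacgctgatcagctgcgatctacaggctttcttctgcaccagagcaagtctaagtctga
Cd36: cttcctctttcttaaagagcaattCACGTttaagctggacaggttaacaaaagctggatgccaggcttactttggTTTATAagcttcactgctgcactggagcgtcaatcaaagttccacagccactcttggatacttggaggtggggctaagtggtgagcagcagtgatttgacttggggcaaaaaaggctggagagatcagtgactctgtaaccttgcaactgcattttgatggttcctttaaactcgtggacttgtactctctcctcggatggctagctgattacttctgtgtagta
These matches describe the letters and are not sites of binding. The nuclear receptor half-site AGGTCA was found on the opposite strand of Slc27a1 alone among the 6, against 16.18% of all promoters.

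Within each tissue, the question was whether exercise, hypoxia or both altered these genes. None of the 10 was called by edgeR in any of the 5 contrasts of either tissue. These are exercise at normal oxygen (CE against C), hypoxia at rest (H against C), exercise in hypoxia (HE against H), hypoxia in running rats (HE against CE) and the interaction. In fat edgeR called 0% of 16364 genes in each contrast, so this count has a background of 0 as well. At an unadjusted p under 0.05, edgeR counted 0 of the 10 in fat for CE against C, where 5.04% of all genes passed, 2 for H against C (4.75% of all genes), 1 for HE against H (16.8%), 2 for HE against CE (11.4%) and 1 for the interaction (5.21%). In muscle edgeR called 0.00805%, 0.0403%, 0.00805%, 0% and 0% of 12421 genes in the same order, and the unadjusted counts of the 10 were 3, 1, 3, 1 and 1 against 3.09%, 8.42%, 3.74%, 3.58% and 3.82% of all genes. DESeq2 called 64, 152, 976, 471 and 65 genes in fat, among them Lpl in H against C, Fabp3 in HE against H and Lpl in HE against CE, and 6, 106, 7, 14 and 13 in muscle with none of the 10.

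**Figure D3:**
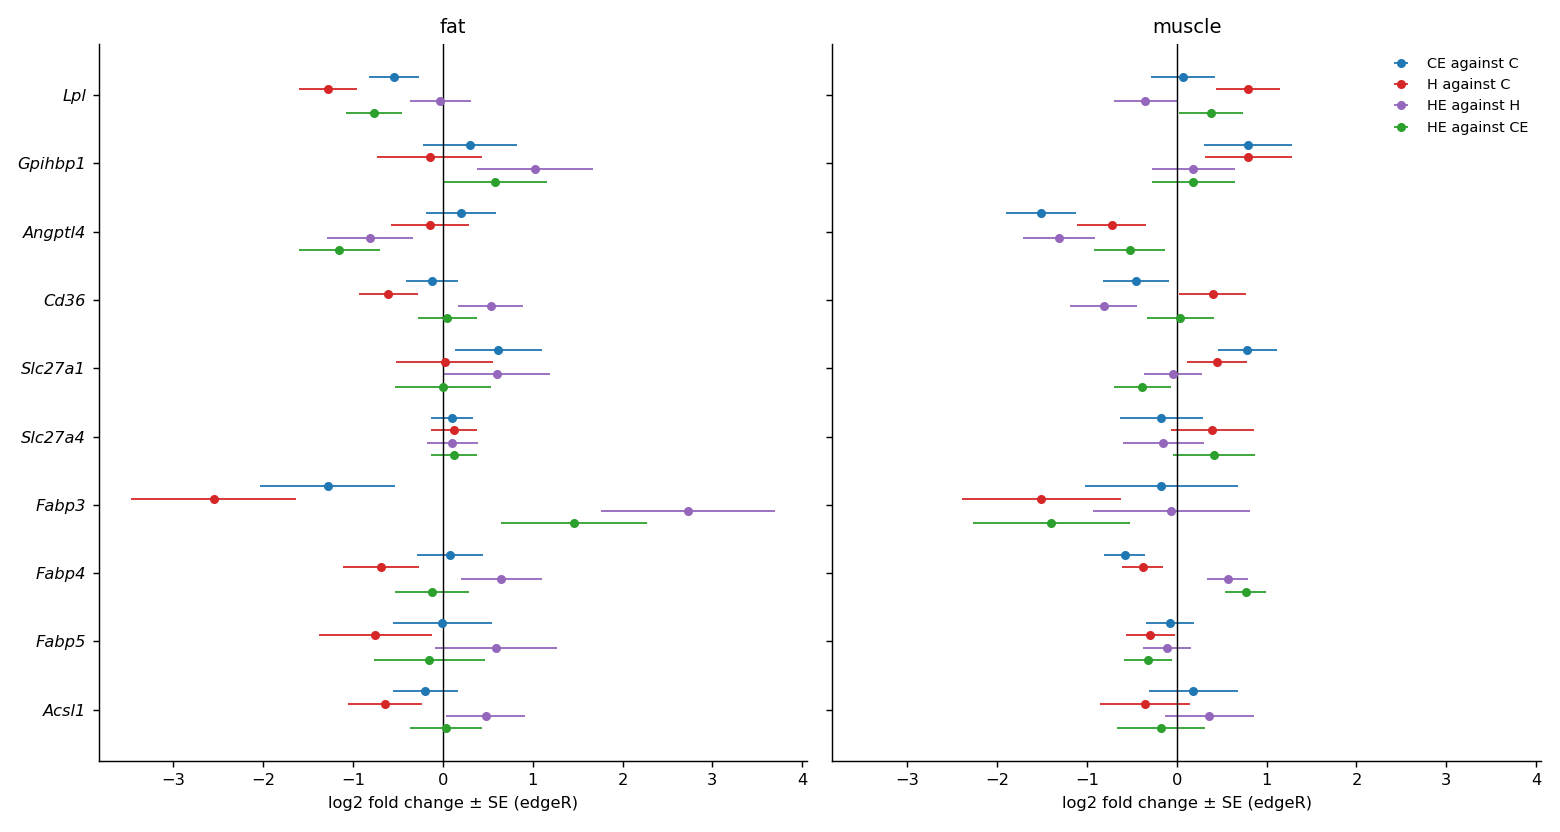
Log2 fold changes of the 10 genes in 4 contrasts, in fat and in muscle, with standard errors from edgeR as bars. Lpl is below 0 in fat in H against C, at -1.28, and above 0 in muscle, at 0.80, and Angptl4 in muscle is below 0 in all 4 contrasts. No value passed the adjusted threshold.

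Lpl, which encodes lipoprotein lipase (chr16:22537056-22561496, minus strand, in the Ensembl annotation of the table), was lower in every treated fat group than in FC. Its fat levels were 8494, 13246 and 12966 CPM in FC, 6447, 7863 and 8454 CPM in FCE, 5402 and 5317 CPM in FH, and 4744 and 4423 CPM in FHE. The 4 groups did not overlap, in the order FC, FCE, FH and FHE, although FC1 and FCE3 lay next to each other, and with levels taken as TPM FCE2 was above FC1, so FC and FCE overlapped. For H against C the log2 fold change was -1.28 (SE 0.32, unadjusted p = 0.00287, adjusted p = 0.681 from edgeR, and adjusted p = 2.84e-05 from DESeq2). For HE against CE it was -0.77 (SE 0.31, unadjusted p = 0.0365, adjusted p = 0.414 from edgeR, and 0.0449 from DESeq2), and for CE against C, where Lpl had the smallest p of the 10, it was -0.54 (SE 0.28, adjusted p = 0.923 from edgeR). HE against H was at -0.03 on the scale of edgeR, although the CPM levels of FH and FHE did not overlap. Leaving out each fat library in turn kept H against C between -1.54 and -1.06, with an unadjusted p of at most 0.0151. Where an FH or FHE library is left out, here and below, the group keeps 1 library, whose spread is taken from the other groups.

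The FH libraries differed from each other in cell markers but not in Lpl. Adipocyte markers summed to 48649 CPM in FH1 and 18758 CPM in FH3, against 29264 to 47475 CPM in FC, while mesothelial markers were at 158.5 and 1046 CPM against 14.2 to 20.5 CPM. In fat the genes whose levels most resembled Lpl over the 10 libraries, by Pearson's r of log2 levels, were Medag (0.943), Clmp (0.939) and Pter (0.935) of 8686 genes compared. The libraries share their depth and cell makeup, so these values are a description.

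In muscle Lpl had the opposite sign for hypoxia. Its levels were 283, 319 and 398 CPM in MC, 246, 501 and 283 CPM in MCE, 612, 310.0 and 862 CPM in MH, and 370.2, 446 and 534 CPM in MHE. MH1 and MH3 were above every MC library, while MH2 fell within the MC range, so the groups overlapped. The log2 fold change for H against C was 0.80 (SE 0.36, unadjusted p = 0.0421, adjusted p = 0.571 from edgeR), and without MH3 it was 0.43 (unadjusted p = 0.255). The difference between tissues in this contrast, muscle minus fat, was 2.08 (SE 0.55, unadjusted p = 0.00112, adjusted p = 0.769 from edgeR), the smallest p of the 10 genes in any tissue difference, and at an unadjusted p under 0.05 it was 1 of the 10 where 5.37% of 16528 genes passed. Endothelial markers summed to 636 to 868 CPM in MH and 447 to 630.2 CPM in MC and did not overlap, and their part in this result was not tested. The genes most like Lpl in muscle were Alg2 (r = 0.911), Nceh1 (0.900) and Trim26 (0.896) of 8582 compared over 12 libraries.

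**Figure D4:**
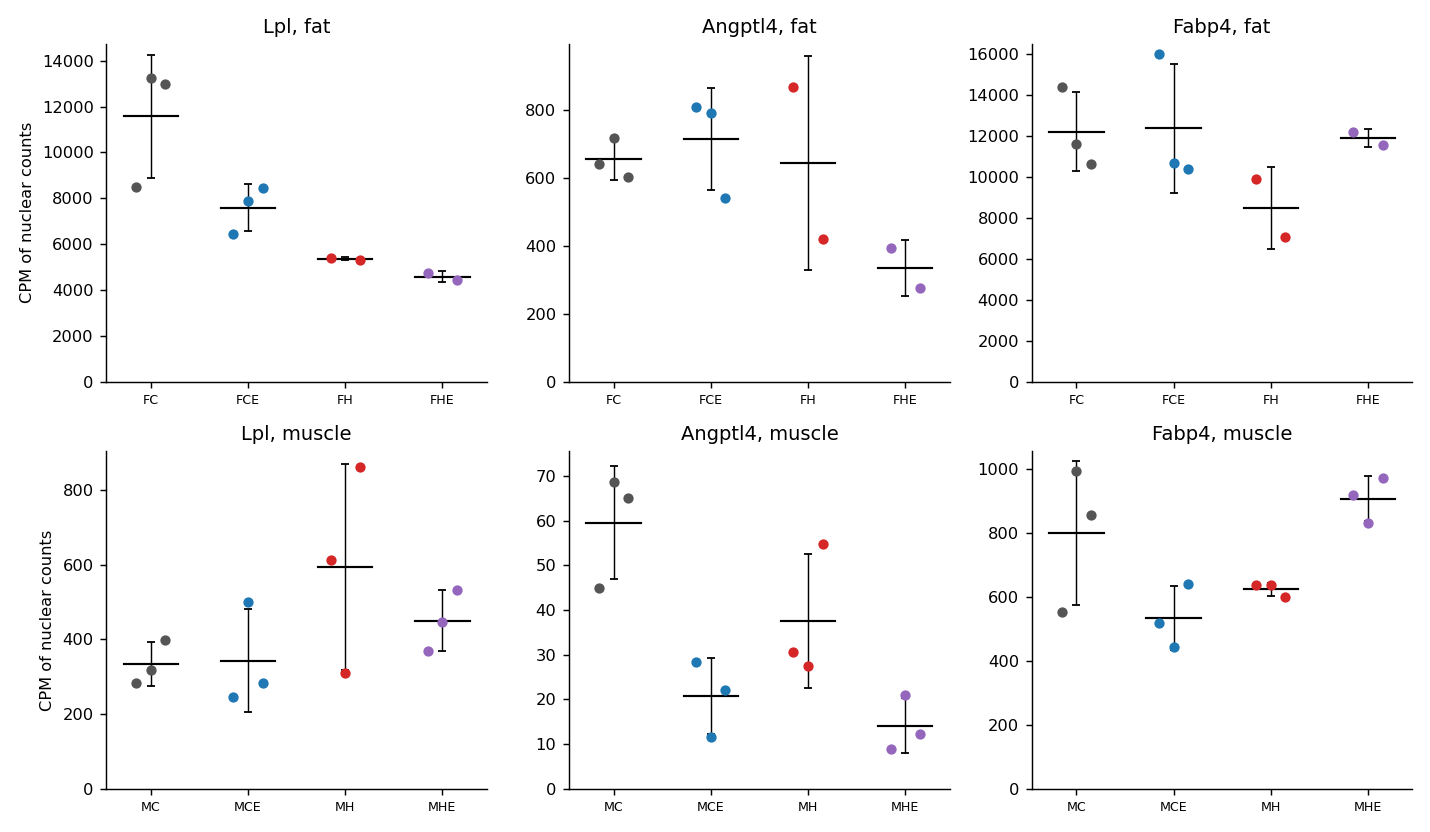
Levels of Lpl, Angptl4 and Fabp4 in fat (top) and muscle (bottom), as CPM of nuclear counts. Points are libraries, horizontal bars are group means and error bars are SD (n = 3, and n = 2 in FH and FHE). In CPM, Lpl in fat falls in the order FC, FCE, FH and FHE without overlap. As TPM, FC and FCE overlap, and the log2 fold change of HE against H from edgeR is -0.03. Angptl4 in muscle is lower in both exercise groups than in their quiet groups, and Fabp4 in muscle is highest in MHE by group mean.

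Gpihbp1 (chr7:116632506-116634293, plus strand), the capillary anchor of the lipase, did not separate any treated group from its control. In fat it was at 449.5, 321 and 240.2 CPM in FC, 559, 409 and 223 CPM in FCE, 443 and 232 CPM in FH, and 865 and 388 CPM in FHE. FHE2 alone was far above the other fat libraries. In muscle the levels were 8.34, 17.4 and 8.27 CPM in MC, 11.5, 25.5 and 19.5 CPM in MCE, 20.3, 24.7 and 9.51 CPM in MH, and 14.5, 19.9 and 29.7 CPM in MHE. These rest on 8 to 107 counts per library, and every pair of groups compared overlapped. The relation of Lpl and Gpihbp1 levels over the fat libraries did not pass its test (Pearson's r = -0.473, permutation p = 0.168, adjusted p = 0.449 over 16 pairs, Spearman's rho = -0.297, permutation p = 0.405, and r = -0.311 without FC2 and FC3). Over the muscle libraries r was 0.117 (permutation p = 0.717, adjusted p = 0.960, rho = 0.294). The genes most like Gpihbp1 in fat were Rhbdd3 (r = 0.962), Higd1b (0.937) and Rbp7 (0.923), and in muscle Suds3 (0.849), Rnf126 (0.839) and Nfkbia (0.833).

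Angptl4 (chr7:18627808-18634079, minus strand), the secreted inhibitor of the lipase, was lower in muscle of both exercise groups than in muscle of the matching quiet groups. Its muscle levels were 45.05, 68.7 and 65.0 CPM in MC, 28.4, 11.7 and 22.2 CPM in MCE, 30.5, 27.5 and 54.7 CPM in MH, and 8.99, 20.96 and 12.4 CPM in MHE. All MCE libraries were below all MC libraries and all MHE libraries were below all MH libraries, on 17 to 275 counts per library. For CE against C the log2 fold change was -1.51 (SE 0.39, unadjusted p = 0.00155, adjusted p = 1 from edgeR, and adjusted p = 0.196 from DESeq2), and for HE against H it was -1.31 (SE 0.40, unadjusted p = 0.00538, adjusted p = 1 from edgeR). Each stayed at an unadjusted p under 0.05 with every library left out in turn, with ranges of -1.72 to -1.28 and -1.78 to -0.98, and also without the 5 muscle libraries rich in hepatocyte transcripts that are described with Acsl1 (-1.16 and -1.63). That omission leaves 1 MHE library, so the value for HE against H then takes its spread from the other groups. H against C was at -0.73 and HE against CE at -0.52, with overlapping groups in both.

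Adipocyte markers summed to 639 to 674 CPM in MCE and 644 to 1139 CPM in MC. These ranges overlapped through MC1 alone, and MC2 and MC3, at 939 and 1139 CPM, were above every MCE library. The markers were higher in MHE, with 947 to 1334 CPM, than in MH, with 621 to 812 CPM, while Angptl4 was lower in MHE. Their part in the Angptl4 differences was not tested. Angptl4 in fat showed another pattern, with 641, 718 and 601 CPM in FC, 809, 790.4 and 539.9 CPM in FCE, 865 and 419 CPM in FH, and 393 and 277 CPM in FHE. Both FHE libraries were below all other fat libraries. The log2 fold change for HE against CE was -1.15 (SE 0.45, unadjusted p = 0.0300, adjusted p = 0.401 from edgeR), and without FHE3, the library rich in muscle fibre transcripts, it was -0.93 (unadjusted p = 0.161). The difference between tissues for CE against C was -1.68 (SE 0.55, unadjusted p = 0.00668, adjusted p = 1 from edgeR), and this was 1 of the 10 genes where 4.36% of all genes had an unadjusted p under 0.05. In fat the genes most like Angptl4 were Actr1a (r = 0.975), Hsd3b7 (0.964) and Tmem115 (0.950), and in muscle Ptp4a2 (0.880), Cdk4 (0.866) and Mospd3 (0.849). Lpl and Angptl4 gave r = 0.501 over fat libraries (permutation p = 0.139, adjusted p = 0.446, rho = 0.430) and r = -0.0403 over muscle libraries (permutation p = 0.900, adjusted p = 0.960, rho = -0.0559).

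Cd36 (chr4:14001761-14249749, plus strand), the membrane receptor that takes up long-chain fatty acids, varied little in fat. It was at 3489, 3801 and 3757 CPM in FC, 3657, 3389 and 2591 CPM in FCE, 2733 and 2778 CPM in FH, and 4152 and 2782 CPM in FHE. Both FH libraries were below all FC libraries, and the log2 fold change was -0.61 (adjusted p = 1 from edgeR). In muscle it was at 418, 641 and 320.1 CPM in MC, 297, 388 and 316 CPM in MCE, 625, 303 and 949.9 CPM in MH, and 322, 248 and 464 CPM in MHE. MH3 was the highest, and the groups overlapped, with -0.82 for HE against H (SE 0.37, unadjusted p = 0.0464, adjusted p = 1 from edgeR). Without MH3 that value was -0.38 (unadjusted p = 0.318). The tissue difference of HE against H was -1.35 (SE 0.58, unadjusted p = 0.0302, adjusted p = 0.389 from edgeR), 1 of the 10 genes against 11.1% of all genes. RefSeq lists Cd36 copies in the rat, so reads may be shared between them. The genes most like Cd36 were Ptgr2 (r = 0.893), Mocs2 (0.864) and Pth1r (0.848) in fat, and Man2a2 (0.948), Epdr1 (0.935) and Zdhhc5 (0.906) in muscle, of which Zdhhc5 encodes an enzyme known to palmitoylate CD36.

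Of the transport proteins, Slc27a1 (chr16:19999112-20016190, plus strand) was higher in all MCE than in all MC libraries. It was at 13.9, 15.5 and 19.9 CPM in MC, 24.2, 34.4 and 26.97 CPM in MCE, 32.3, 15.9 and 21.4 CPM in MH, and 25.4, 15.5 and 25.3 CPM in MHE. The log2 fold change for CE against C was 0.78 (SE 0.33, unadjusted p = 0.0313, adjusted p = 1 from edgeR), on 16 to 84 counts per library, and it was 0.58 without MCE2 (unadjusted p = 0.119). In fat it was at 368, 171 and 297 CPM in FC, 552, 448 and 209 CPM in FCE, 399 and 222 CPM in FH, and 412 and 441 CPM in FHE. In CPM, FHE was above FH and the other groups overlapped, while with TPM FHE and FH overlapped too. Slc27a4 (chr3:8363937-8376858, plus strand) was the steadiest of the 10 in fat, from 33.9 to 50.3 CPM with a coefficient of variation of 13.7% over the 10 libraries. Its fat levels were 33.9, 45.5 and 34.4 CPM in FC, 37.0, 37.6 and 43.2 CPM in FCE, 50.3 and 42.8 CPM in FH, and 48.2 and 40.1 CPM in FHE, and its 4 log2 fold changes between fat groups were 0.10 to 0.13. In muscle it was at 13.9, 5.81 and 11.8 CPM in MC, 14.2, 5.51 and 8.88 CPM in MCE, 14.2, 15.5 and 13.1 CPM in MH, and 17.6, 6.53 and 14.8 CPM in MHE, on 6 to 67 counts, and no groups separated.

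Fabp3 (chr5:148528725-148535565, plus strand) varied more than any other of the 10 genes, with 18.01 times between the lowest and highest muscle library and 19.8 times in fat. In muscle it was at 197, 425 and 123 CPM in MC, 50.2, 490.2 and 93.5 CPM in MCE, 114, 27.2 and 136 CPM in MH, and 34.4, 34.4 and 182 CPM in MHE. Every pair of muscle groups overlapped. The spread followed genes of slow muscle fibres, a list of 6 (Myh7, Tnnt1, Tnni1, Tnnc1, Myl2 and Myl3) that was chosen after its values were seen, so no test is given. Their sum was 3556 CPM in MCE2 and 1647 CPM in MC2, where Fabp3 was highest, and 18.9, 52.6, 61.1 and 319.7 CPM in MHE2, MCE1, MH2 and MHE1, where Fabp3 was lowest. Over the 12 muscle libraries Pearson's r of the log2 levels was 0.867 and Spearman's rho 0.923, and r was 0.904 without MCE1 and MHE2, whose slow fibre sums were farthest from the median. The other 9 genes gave r from -0.128 for Slc27a4 to 0.660 for Cd36, and without the same libraries from -0.528 for Slc27a4 to 0.769 for Acsl1. Summed over all 15 fibre markers found, fast ones included, fibre transcripts gave r = -0.0430 with Fabp3 in muscle (permutation p = 0.898, adjusted p = 0.960, rho = -0.0699).

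In fat Fabp3 was at 31.0, 29.4 and 16.8 CPM in FC, 15.3, 10.02 and 4.85 CPM in FCE, 6.95 and 2.57 CPM in FH, and 7.43 and 51.0 CPM in FHE. The FC libraries were above all FCE and FH libraries, and the highest value of all was in FHE3, which also had the most slow fibre transcripts in fat at 939 CPM against 1.17 to 64.0 CPM elsewhere. The log2 fold change was -2.55 for H against C (SE 0.92, unadjusted p = 0.0209, adjusted p = 0.934 from edgeR). It was 2.73 for HE against H (SE 0.97, unadjusted p = 0.0194, adjusted p = 0.241 from edgeR, and 0.0345 from DESeq2) and 4.01 for the interaction (SE 1.22, unadjusted p = 0.00900, adjusted p = 0.943 from edgeR). Without FHE3 these were 0.74 (unadjusted p = 0.420) and 2.03 (unadjusted p = 0.0875), so the values that involve FHE rest on that library. Without FH3, H against C was -1.89 with an unadjusted p of 0.131. The tissue difference of HE against CE was -2.91 (SE 1.33, unadjusted p = 0.0414, adjusted p = 0.623 from edgeR), 1 of the 10 genes against 7.52% of all genes, and -0.91 without FHE3.

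Fabp4 (chr2:93792601-93797305, plus strand) was higher in muscle of hypoxia exercise rats than in muscle of both hypoxic quiet and normoxia exercise rats. Its muscle levels were 553, 994 and 857 CPM in MC, 520.2, 444 and 642 CPM in MCE, 637, 637 and 602 CPM in MH, and 921, 832 and 973 CPM in MHE. All MHE libraries were above all MH and all MCE libraries, while MC spanned most of the range. The log2 fold change was 0.77 for HE against CE (SE 0.23, unadjusted p = 0.00482, adjusted p = 0.997 from edgeR), 0.57 for HE against H (SE 0.23, unadjusted p = 0.0271, adjusted p = 1 from edgeR) and -0.58 for CE against C (SE 0.23, unadjusted p = 0.0239, adjusted p = 1 from edgeR). The interaction was 1.15 (SE 0.32, unadjusted p = 0.00329, adjusted p = 1 from edgeR), and it was 0.94 to 1.35 with each muscle library left out. CE against C was -0.37 without MC2 (unadjusted p = 0.147). Without the 5 muscle libraries rich in hepatocyte transcripts, again with 1 MHE library left, HE against CE was 0.81 (unadjusted p = 0.0736) and the interaction 0.98 (unadjusted p = 0.0971).

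The summed adipocyte markers moved with Fabp4 in muscle. All 15 markers were in the table, and their sum was 644 to 1139 CPM in MC, 639 to 674 CPM in MCE, 621 to 812 CPM in MH and 947 to 1334 CPM in MHE, so MHE did not overlap with MH or MCE for these either. Adipoq, which encodes the adipocyte hormone adiponectin, was at 120.0, 237 and 226 CPM in MHE, 70.5, 22.7 and 41.3 CPM in MCE, 113.7, 66.4 and 105.8 CPM in MH, and 25.03, 87.1 and 304 CPM in MC. MHE was above MCE and MH for this gene, while MC3 was the highest of all. Over the 12 muscle libraries Fabp4 and the summed adipocyte markers gave r = 0.802 (permutation p = 0.0026, adjusted p = 0.0416 over 16 pairs, rho = 0.685 with adjusted p = 0.135), and r = 0.797 without MC2 and MHE3. Their part in the differences between groups was not tested.

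**Figure D5:**
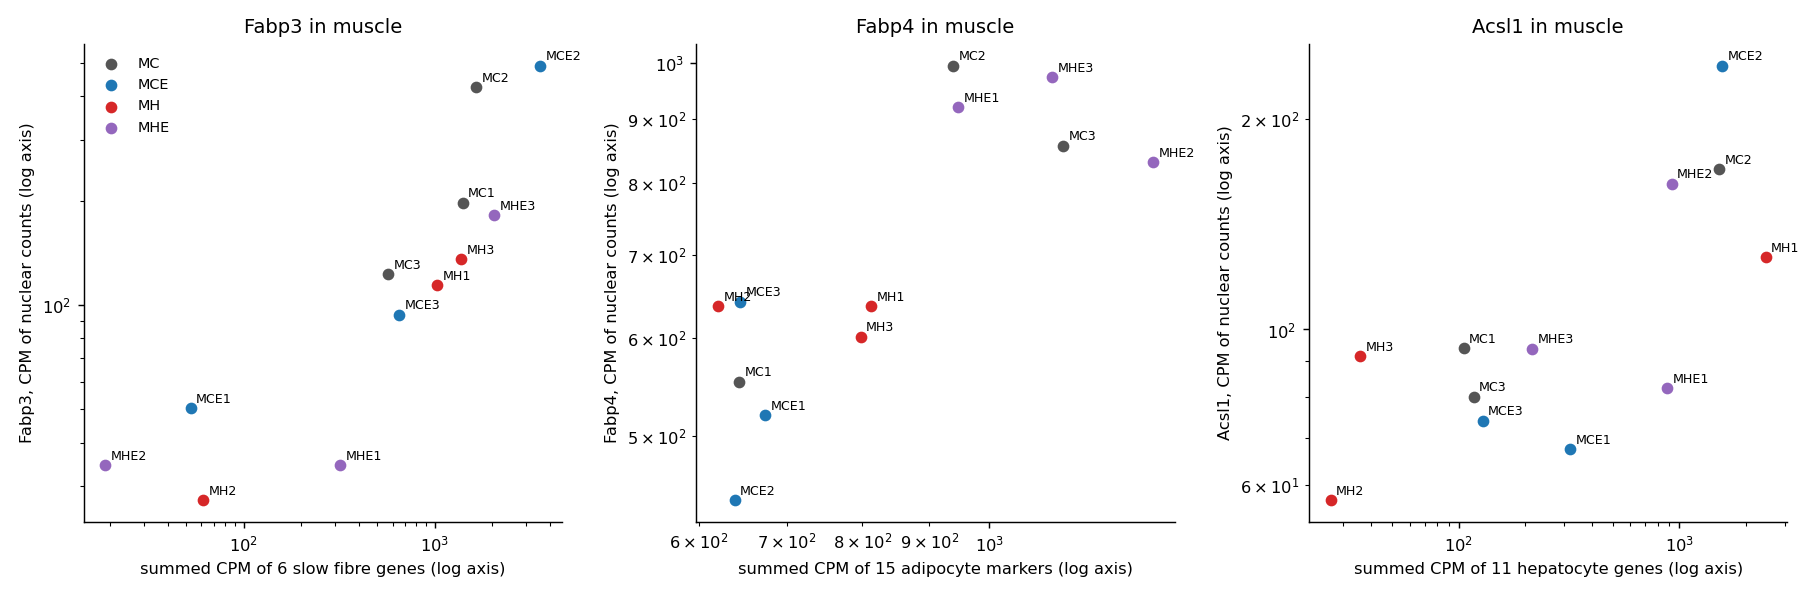
Levels of Fabp3, Fabp4 and Acsl1 in the 12 muscle libraries (CPM of nuclear counts) against the summed levels of 6 slow fibre genes, 15 adipocyte markers and 11 hepatocyte genes, all on log axes. Points are libraries coloured by group. Fabp3 follows the slow fibre genes (r = 0.867) and Fabp4 the adipocyte markers (r = 0.802). The highest Acsl1 values, in MCE2 and MC2, are in libraries with 1569 and 1521 CPM of hepatocyte genes. MH1, with the most hepatocyte transcripts at 2460 CPM, has 127 CPM of Acsl1, and MHE1, with 879 CPM, has 82.5 CPM.

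In fat Fabp4 was at 14377, 11587 and 10652 CPM in FC, 16018, 10700.1 and 10387 CPM in FCE, 9906 and 7068 CPM in FH, and 12217 and 11576 CPM in FHE. FH was below all FC and all FHE libraries, with log2 fold changes of -0.69 for H against C (adjusted p = 1 from edgeR) and 0.65 for HE against H (adjusted p = 0.468 from edgeR). Over fat libraries Fabp4 gave r = 0.770 with the adipocyte markers (permutation p = 0.0122, adjusted p = 0.0652, rho = 0.515), which was 0.215 without FCE1 and FH3 and so rests on those libraries. With Cd36 it gave r = 0.546 (permutation p = 0.102, adjusted p = 0.409, rho = 0.673).

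Fabp5 (chr2:93981656-93985378, minus strand) lies close to Fabp4 on the same chromosome, and RefSeq lists Fabp5 pseudogenes in the rat with which it may share reads. In fat it was at 215, 263 and 135 CPM in FC, 315, 168 and 92.0 CPM in FCE, 176 and 91.3 CPM in FH, and 241 and 127 CPM in FHE. In muscle it was at 32.3, 43.6 and 51.8 CPM in MC, 32.4, 46.8 and 41.3 CPM in MCE, 37.2, 35.8 and 32.1 CPM in MH, and 34.8, 35.7 and 25.3 CPM in MHE. No groups compared were apart in either tissue, and its log2 fold changes between groups had adjusted p of at least 0.666 in fat and 0.840 in muscle from edgeR. Fabp4 and Fabp5 gave r = 0.771 over fat libraries (permutation p = 0.00594, adjusted p = 0.0475, rho = 0.794 with adjusted p = 0.135), 0.511 without FCE1 and FH3, and r = -0.0752 over muscle libraries (permutation p = 0.816, adjusted p = 0.960, rho = 0.0769).

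Acsl1 (chr16:48937456-49003246, minus strand) was at 4963, 5175 and 4457 CPM in FC, 4262, 4676 and 3212 CPM in FCE, 4364 and 2493 CPM in FH, and 4432 and 4204 CPM in FHE. FH was below all FC libraries, and its log2 fold change was -0.64 (adjusted p = 1 from edgeR). In muscle it was at 94.0, 169 and 80.1 CPM in MC, 67.4, 238 and 74.1 CPM in MCE, 127, 57.0 and 91.5 CPM in MH, and 82.5, 161 and 93.9 CPM in MHE, and every pair of groups overlapped. MCE2, MC2 and MHE2 were the highest, and these libraries also held transcripts of 11 genes made mainly by hepatocytes, a list chosen after its values were seen. That sum was 1569, 1521 and 924 CPM in those 3 libraries, 2460 CPM in MH1, 879 CPM in MHE1 and 26.3 to 321 CPM in the other 7 muscle libraries. In fat it was 425 CPM in FC3 and 1.19 to 99.3 CPM in the rest. Acsl1 is strongly expressed in liver, and the part of these transcripts in its muscle level was not tested. Slc27a1 and Acsl1 gave r = 0.347 in fat (permutation p = 0.336, adjusted p = 0.597, rho = -0.0545) and r = 0.167 in muscle (permutation p = 0.602, adjusted p = 0.960, rho = 0.0140).

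Groups that did not overlap were counted for all 10 genes together. In fat, 2 were apart in CE against C, both lower in FCE (Lpl and Fabp3), where 10.4% of all genes did not overlap. In H against C, 5 were apart and all were lower in FH (Lpl, Cd36, Fabp3, Fabp4 and Acsl1), against 19% of all genes, and the median log2 fold change of the 10 was -0.62 against 0.02 over all genes tested. In HE against H, 6 were apart in CPM against 43% of all genes. Cd36, Fabp3, Fabp4 and Slc27a1 were higher and Lpl and Angptl4 lower in FHE. With TPM, Cd36, Fabp3 and Slc27a1 overlapped in this contrast, and Slc27a4 was apart and lower in FHE. In HE against CE, 2 were apart against 28.6%, with Lpl and Angptl4 lower. H against C and HE against H share the FH libraries, so their opposite signs are not independent. In muscle, 2 of the 10 were apart in CE against C (7.69% of all genes), 0 in H against C (13.8%), 2 in HE against H (8.77%) and 1 in HE against CE (9.54%).

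The tissue differences of the 4 contrasts were tested on 16528 genes, and edgeR called 0% of them, and 0 of the 10, in each. DESeq2 was not run for these differences, and 1 of the 10 had an unadjusted p under 0.05 in each, as given above. The median tissue difference of the 10 was 0.09 for CE against C, 0.45 for H against C, -0.58 for HE against H and -0.13 for HE against CE, against 0.04, 0.02, 0.02 and 0.02 over all genes. In HE against H all 10 differences were below 0, from -2.81 for Fabp3 to -0.09 for Fabp4. Over all genes, 50.6% of these differences were above 0. Only that of Cd36 among the 10 had an unadjusted p under 0.05 from edgeR. The 10 values share the same libraries, among them FHE3, with 32483 CPM of muscle fibre markers, and FH3, with 18758 CPM of adipocyte markers. The part of these libraries in the shared sign was not tested.

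Other genes of the same pathway were taken from 4 lists of 52 genes, namely partners and receptors of the lipase, further fatty acid transport and binding proteins, further acyl-CoA synthetases, and transcription factors known to act on the 10 genes. None was called by edgeR within a tissue, while DESeq2 called 3 of those named here in fat, Cav2, Sdc1 and Tcf15, with the values given below. In fat, 48 entries were tested, and at an unadjusted p under 0.05 there were 1 higher and 0 lower for CE against C, 1 and 9 for H against C, 3 and 2 for HE against H, 2 and 7 for HE against CE, and 1 and 1 for the interaction. Over all genes the shares in either direction were 5.04%, 4.75%, 16.8%, 11.4% and 5.21%. In muscle, 41 were tested, with 0 higher and 1 lower, 3 and 1, 0 and 0, 3 and 0, and 1 and 1 in the same order, where 3.09%, 8.42%, 3.74%, 3.58% and 3.82% of all genes passed. The 9 lower for hypoxia at rest in fat were 3 of 14 lipase partners and receptors, 4 of 17 transport and binding proteins, 2 of 6 synthetases and 0 of 11 transcription factors, and the 3 higher in muscle for the same contrast were all among 14 lipase partners and receptors.

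Of the 9 lower in H against C of fat, those of smallest p were Cav2, which encodes a caveolin, with a log2 fold change of -0.80 (unadjusted p = 0.00519, and adjusted p = 0.000961 from DESeq2), the lipoprotein receptor gene Vldlr with -0.90 (unadjusted p = 0.00677) and Apoc3, which encodes an apolipoprotein that inhibits lipolysis, with -2.38 (unadjusted p = 0.0129), with the unadjusted p from edgeR. Apoc3 was at 29.2 CPM in FC3, the fat library with the most hepatocyte transcripts, and at 7.55 and 7.33 CPM in FC1 and FC2 against 3.85 and 2.08 CPM in FH. In muscle the same contrast had Sel1l, which is needed for lipase maturation, at 1.24 (unadjusted p = 0.00329), Vldlr at 1.01 (unadjusted p = 0.00377) and Pcsk6 at 0.56 (unadjusted p = 0.0336). Sel1l was at 116, 96.4 and 191 CPM in MH and 61.7, 54.2 and 50.4 CPM in MC, and Vldlr at 55.7, 51.4 and 70.1 CPM in MH and 33.4, 31.0 and 22.2 CPM in MC, so neither overlapped. Sdc1, a heparan sulphate proteoglycan, was low in FHE at 24.9 and 20.7 CPM, against 106, 52.3 and 114 CPM in FCE and 94.0 and 56.7 CPM in FH. Its log2 fold change was -2.03 for HE against CE (unadjusted p = 0.00213 from edgeR, and adjusted p = 0.00237 from DESeq2) and -1.58 for HE against H (unadjusted p = 0.0114 from edgeR, and adjusted p = 0.0430 from DESeq2).

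Among the others named in fat, Tcf15, which encodes an endothelial transcription factor that acts on Cd36 in mice, was at 1.98 for HE against H (unadjusted p = 0.00778 from edgeR, and adjusted p = 0.0212 from DESeq2), and Lmf1, a lipase maturation factor, at 0.79 (unadjusted p = 0.0208). Ppargc1a, which encodes a coactivator of oxidative genes, was at 3.13 for HE against CE (unadjusted p = 0.00780) and 3.64 for the interaction (unadjusted p = 0.0226), with 3.81 CPM in FHE3 as its highest fat level against 0.847 CPM in FHE2. Slc27a3 was at -1.11 for HE against CE, Acsbg1 at 4.29 for CE against C through 15.1 CPM in FCE1 alone, and Mfsd2a at -4.93 for the interaction with no fat level above 0.694 CPM. In muscle Pparg, the adipogenic nuclear receptor, was at 1.18 and Tcf15 at 0.78 for HE against CE. Angptl8, a partner of lipase inhibitors made in liver and fat, was at -3.94 for CE against C, 3.73 for HE against CE and 5.32 for the interaction, on levels of at most 11.6 CPM (in MC2, rich in hepatocyte transcripts), and Vldlr was at -0.91 for the interaction.

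Between tissues, 43 pathway entries were tested, and edgeR called 14 higher in muscle and 20 higher in fat, where 26.2% and 32.5% of all genes were called. These were 3 and 7 of 12 lipase partners and receptors, 5 and 7 of 15 transport and binding proteins, 1 and 3 of 5 synthetases and 5 and 3 of 11 transcription factors. The hepatocyte-type genes Fabp1, Apoc2, Apoc3, Apoa5 and Slc27a5 were among the 14, and Fabp1 was at 151, 70.9, 97.3, 35.6 and 81.8 CPM in MC2, MCE2, MH1, MHE1 and MHE2 but at 0 to 23.9 CPM in the other muscle libraries. Pparg was lower in muscle with a log2 fold change of -4.43, close to those of Fabp4 and Lpl, and Cav1 with -2.88.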

How the data were processed

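RNA of 10 epididymal fat and 12 gastrocnemius libraries was prepared by the authors with a stranded TruSeq mRNA kit, and they used FastQC and Trimmomatic (per the labels), HISAT2 and the Ensembl 99 rat annotation. The counting program and the strand setting used for counting are not given in the sources used here. Reduced oxygen was 13.6%. The deposited table holds raw read counts per gene. It also holds TPM values that the authors scaled by gene length and library total, and 22 FPKM columns, which were not used here.

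Groups came from the library titles. CPM was computed over nuclear counts, and the TPM values were rescaled to nuclear genes. Counts of all genes, mitochondrial ones included, were filtered with filterByExpr, scaled by TMM and tested with edgeR 4.0.16 (glmQLFit, R 4.3.3). The log2 fold changes are therefore scaled otherwise than the CPM levels. Tests used Benjamini-Hochberg adjustment and a threshold of 0.05, within each tissue and over 22 libraries between tissues. The common dispersion estimated for fat was 0.232, and for muscle 0.136. Fitted tests were also run on simulated data, and their power for changes of the sizes seen here is not reported. A total of 3 counts equals 0.0830 to 0.150 CPM in fat and 0.692 to 3.57 CPM in muscle, which covers counting error only. Pairs of levels were compared on log2(CPM + 1) with 100000 permutations, two-sided (scipy 1.17.1), and Benjamini-Hochberg adjustment over 16 pairs. Genes most alike were the 3 of highest r among those with a mean of at least 10 CPM. Named pathway genes were the 3 of smallest unadjusted p under 0.05 in each contrast, and others named were chosen after their values were seen.

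Alternatives were DESeq2 1.42.0, no filter or a filter of 5 CPM in 2 libraries, other scalings and mitochondrial genes left out. A pseudocount of 0.1, a replicate block and left-out libraries were also tried. The genes and lists were chosen with earlier results of these data known.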

Additional observations from a re-analysis of the deposited data

How the results depend on the processing

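Not every log2 fold change of the 10 genes was recomputed. Those recomputed had an unadjusted p under 0.05 from edgeR or the smallest p of the 10 in a contrast, and between tissues all 10 were taken. All 684 values for these 30 results kept their sign, and none of the 365 for the 21 named pathway results reversed. That choice favours a kept sign, and the other fold changes were not recomputed. Of 313 recounts of the genes called among the 10, 3 differed, all under DESeq2, which called 1 in fat for H against C, 1 for HE against H and 1 for HE against CE. Over all genes DESeq2 called 64, 152, 976, 471 and 65 in fat, in the order exercise at normal oxygen, hypoxia at rest, exercise in hypoxia, hypoxia in running rats and interaction, and 6, 106, 7, 14 and 13 in muscle. Without a filter on low counts, muscle calls in that order were 2, 57, 2, 4 and 4, against 1, 5, 1, 0 and 0. Replicate numbers were not taken to pair the libraries, since no label ties them to a rat. Deviations from group means had a correlation above 0.1 in 8 of 12 same-numbered pairs in fat (median 0.230, against 6 of 25 and -0.0762 for different numbers). In muscle 2 of 18 same-numbered pairs did, and between tissues 2 of 10. With 2 libraries each, the deviations within FH and within FHE mirror each other, so the fat values cannot decide whether the numbers pair. The replicate block gave 1 call for HE against CE in fat and 2 for H against C in muscle, and changed no call among the 10. Leaving out 1 library in turn gave 0 to 3 (H against C), 0 to 16 (HE against H), 0 to 11 (HE against CE) and 0 to 6 (interaction) calls in fat, 0 to 2, 2 to 11, 0 to 2, 0 to 1 and 0 to 1 in muscle in the order above, 0 to 4, 0 to 211 and 0 to 123 for the tissue differences of hypoxia at rest, exercise in hypoxia and hypoxia in running rats, and 7775 to 8184 between tissues, where 8086 were called with all libraries. Without FHE3 and FCE2, calls were 3 for HE against H, 4 for HE against CE and 3 for the interaction in fat, and 41 and 6 for the tissue differences of HE against H and HE against CE. Without MC2, MCE2, MH1, MHE1 and MHE2, muscle calls were 0 for CE against C and 3 for H against C. That omission, and the block and left-out libraries for the tissue differences, were chosen after seeing the data. With a pseudocount of 0.1, r of Fabp4 and Fabp5 in fat was 0.771 (permutation, adjusted p = 0.0528). With TPM, 1 of the 10 genes did not overlap in fat for CE against C. For HE against H in fat, Cd36, Fabp3 and Slc27a1 overlapped with TPM, while Slc27a4 was apart and lower in FHE. For H against C, Slc27a4 was apart with TPM and higher in FH. The causes were not tested. Low nuclear counts limit Gpihbp1, Slc27a1 and Slc27a4 in muscle most, and also Angptl4 in MCE and MHE, where it had 17 to 94 counts.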

Other observations

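The ratio of Fabp4 to Fabp3 levels per length (TPM over nuclear genes) was between 295 in FHE3 and 3564 in FH3 in fat, and between 1.201 in MCE2 and 35.8 in MHE1 in muscle, so that no muscle library reached the lowest fat library. Albumin (Alb), the main plasma protein made by the liver, was at 46.4 to 8091 CPM over the muscle libraries, highest in MH1 and lowest in MH3, and the 11 hepatocyte genes summed to 2460 CPM in MH1 and 35.7 CPM in MH3. In fat Alb did not follow these genes. It was at 152 to 2371 CPM there, and at 1674 CPM in FC1, where the 11 genes summed to 1.22 CPM. The uncoupling protein gene Ucp1, the defining marker of brown adipocytes, was at 0 counts in every library.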
